A study of Drosophila melanogaster with 6 samples.

Results

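Genes for the enzymes that attach glutathione or a sugar to small molecules were compared between homozygous msl2 mutant and heterozygous male larvae of Drosophila melanogaster. The members are the genes whose symbol in the array's platform annotation starts with GstD, GstE, GstS, GstO, GstT, GstZ or Ugt. Each gene is represented by the single-gene probe set with the highest mean over the 6 arrays. This gave 69 of 11983 measured genes, 34 of them glutathione S-transferase (Gst) genes and 35 UDP-glycosyltransferase (Ugt) genes. They comprise 11 GstD, 13 GstE, 3 GstO, 1 GstS, 4 GstT, 2 GstZ and 35 Ugt genes. A RefSeq gene table lists 70 symbols of these forms, and the remaining one, GstE8, was not analysed here.

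The mutant larvae are males of the genotype yw/Yy+;msl21/msl21, with 3 arrays, and the controls are males of the genotype yw/Yy+;msl21/+, also with 3 arrays. All larvae are in the third instar, and every group thus carries the yellow and white alleles, a Y chromosome with y+, and at least 1 copy of the EMS-induced msl21 allele. The sample titles call the controls wild type, although they are heterozygous. Each array holds RNA from 1 independent preparation of a pool of at least 50 larvae, so that the pool is the replicate, and values of single larvae are averaged.

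Glutathione S-transferases couple the tripeptide glutathione to reactive compounds, which makes them more soluble and less harmful. UDP-glycosyltransferases of insects transfer mainly glucose from UDP-glucose to plant toxins, insecticides, pigments and hormones. Both families belong to the conjugating phase of detoxification and are active in the midgut, the Malpighian tubules and the fat body of larvae. In flies both families have grown by tandem duplication, so that close relatives lie side by side on the chromosome. MSL2 is a subunit of the complex that raises the expression of genes on the single male X chromosome.

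Most of the conjugating genes are autosomal. On chromosome 2 there are 32 members, on chromosome 3 there are 35, and GstT3 and GstT4 are on the X. By gene order 50 members fall into 11 chromosomal clusters, defined as runs of members of 1 family with at most 4 other protein-coding genes between neighbours. The 11 GstD genes form 1 cluster on 3R, 9 GstE genes form 1 cluster on 2R, and 10 Ugt genes form the largest Ugt cluster, on 3R. The remaining 19 members have no such neighbour. The msl-2 gene is on 2L, so variants linked to the msl21 allele and the allele itself cannot be told apart as a source of any difference.

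The arrays differ in ways that bear on these genes. All levels are on the log2 scale, on which a difference of 1 is a factor of 2. Correlations over all genes were between 0.924 and 0.976 among the mutant arrays, between 0.943 and 0.976 for a mutant with a control array, and between 0.988 and 0.991 among the control arrays. RNA integrity was read from 5 control transcripts with probe sets at both ends, as the signal at the 3' end less that at the 5' end. A larger value is a stronger bias towards the 3' end, a sign of less intact RNA. The measure averaged 2.19, 1.33 and 1.88 for mutant replicates 1, 2 and 3, against 1.95, 1.80 and 1.85 in control replicates 1, 2 and 3. The msl-2 transcript had 5.39, 5.21 and 4.73 in the mutants, against 5.18, 5.14 and 4.86 in the controls, and its level does not test for a point mutation. The median of 10 salivary glue genes stood at -4.85, 0.52 and 0.06 for mutant replicates 1, 2 and 3 relative to the control mean. The list holds Sgs genes and Eig71Ee, which come on at the end of larval life, and the new-glue genes ng1, ng2 and ng3. In whole larvae, fewer cells of a type and less RNA per cell cannot be told apart.

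No conjugating gene passed the test over the 6 arrays. Of the 69 members 0 were higher and 0 lower at a Benjamini-Hochberg adjusted p under 0.05 in limma, a linear model fitted to all genes at once. Over all genes, 0 (0%) were higher and 2 (0.0167%) lower. At an unadjusted p under 0.05, 6 members were higher and 2 lower, against 3.86% and 4.66% of all genes. The limma adjusted p of the members lay between 0.251 and 0.997. Their SE had a median of 0.22, and the 95% interval of the difference had a median width of 1.03 on the log2 scale.

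The differences leaned towards higher values in the mutants. In 46 of 69 members (66.7%) the mean was higher in the mutants, against 50.6% of all genes. On the arms 2L, 2R, 3L and 3R, which hold 67 members, the shares were 67.2% of members and 54.3% of genes, since X-linked genes leaned towards lower values. The median difference was 0.09 over the members and 0.00 over all genes. The members' differences ranged between -0.81 for Ugt35C1 and 1.27 for Ugt35E1. A difference of at least 0.5 was found in 11 members that were higher and 5 that were lower, and 53 members differed by less than 0.5. Without control replicate 1 the share of members above 0 was 58.0%, against 50.1% of all genes. Without mutant replicate 1 it was 55.1%, against 47.5%, so the lean rests in part on those arrays. Without mutant replicate 2 there were 46 members above 0, but 14 members changed sign and 31 others moved by more than 1.5 times.

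**Figure D1:**
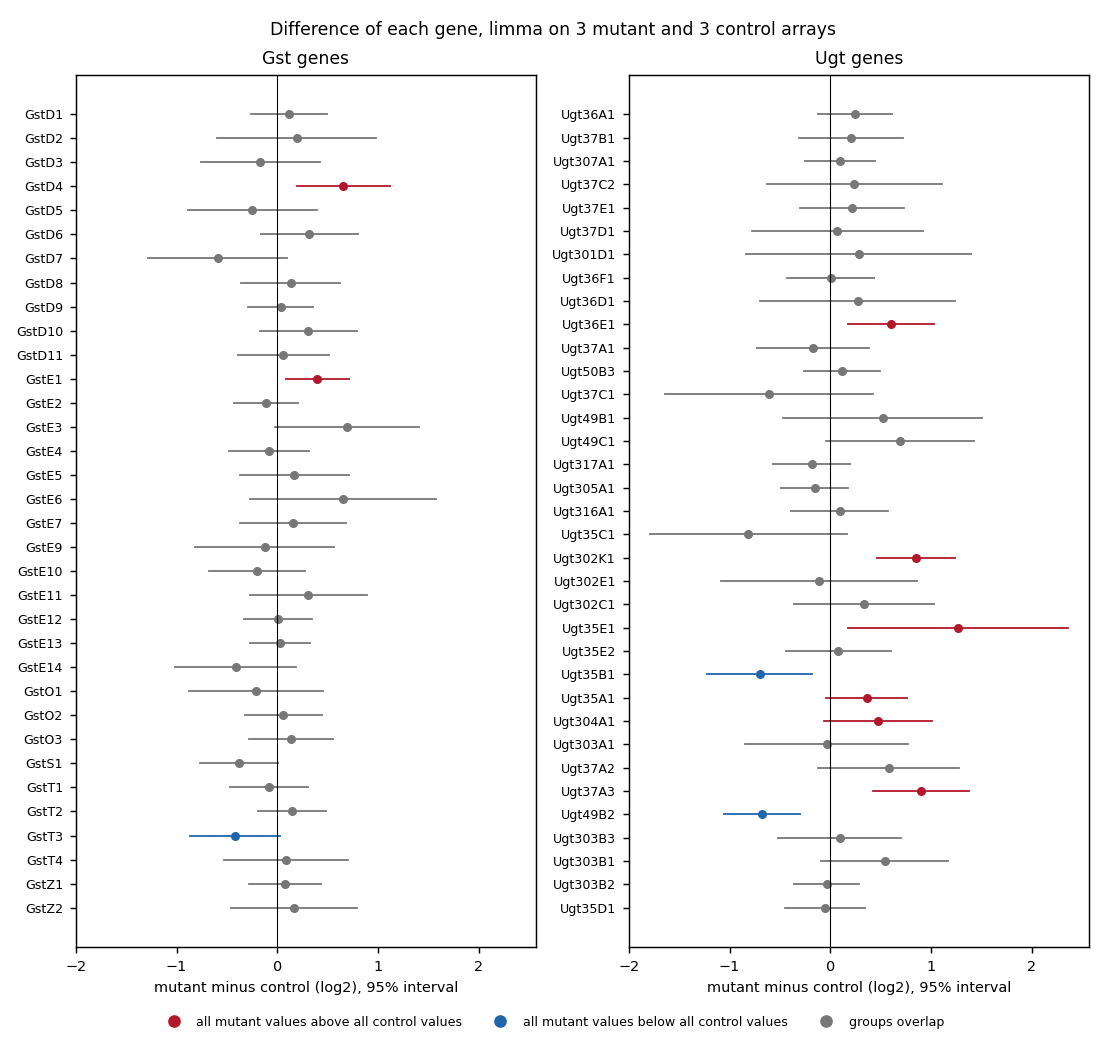
Difference between 3 mutant and 3 control arrays (mutant minus control, log2) for the 34 Gst genes (left) and the 35 Ugt genes (right). Points are differences of group means, lines are 95% intervals from limma, and colours mark genes whose groups did not overlap. Most points lie within 0.5 of 0, and Ugt35E1 at 1.27 is the farthest to the right.

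The groups did not overlap in 11 members, or 15.9%, which is close to the 13.9% of all genes without overlap. All 3 mutant values were above all 3 control values in 8 members (11.6%, against 6.59% of all genes) and below them in 3 members (4.35%, against 7.29%). On the 4 large autosomal arms, 8 members (11.9%) were above, against 7.45% of genes, and 2 (2.99%) were below, against 5.30%. The 8 are GstD4, GstE1, Ugt36E1, Ugt302K1, Ugt35E1, Ugt35A1, Ugt304A1 and Ugt37A3. The 3 are GstT3, Ugt35B1 and Ugt49B2. They belong to 4 of the 7 classes, and 8 of the 11 are Ugt genes.

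**Figure D2:**
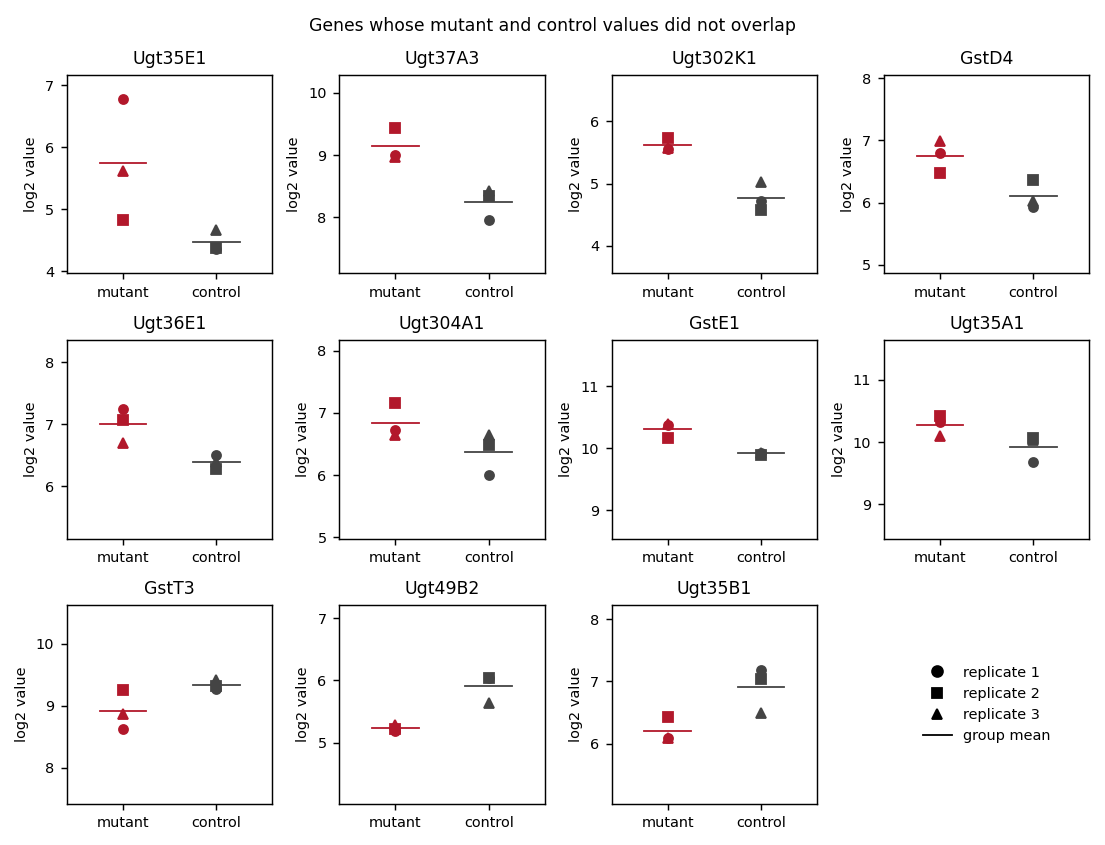
Log2 value of each array for the 11 genes without overlap between the groups, with mutants left and controls right in each panel. Symbols mark the replicate number, lines mark group means, and every panel spans the same log2 range. Ugt37A3 and Ugt302K1 show wide gaps between the groups, and the gaps of Ugt304A1 and GstT3 are narrow.

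Most GstD genes of the cluster on 3R had a higher mean in the mutants, but not all. Delta-class enzymes are known from arthropods, and GstD1 is widely used in flies as a reporter of the oxidative stress response. Of 11 GstD genes 8 had a higher mean in the mutants and 3 a lower one, and the median difference was 0.12. It was 0.25 without mutant replicate 2 and -0.02 without mutant replicate 1. The differences ranged between -0.59 for GstD7 and 0.66 for GstD4.

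GstD4 had log2 values of 6.79, 6.48 and 6.997 in mutant replicates 1, 2 and 3, against 5.92, 6.36 and 6.02 in control replicates 1, 2 and 3. The nearest values of the groups, mutant replicate 2 and control replicate 2, were 0.13 apart. The difference was 0.66 (SE 0.19, limma adjusted p = 0.468), a 1.58-fold higher mean in the mutants. Its chromosomal neighbours GstD3 and GstD5 differed by -0.17 (SE 0.25) and -0.25 (SE 0.27), with overlapping groups. Without mutant replicate 2 GstD5 was at 0.07. GstD7 had 9.30, 8.23 and 9.08 in the mutants, against 9.43, 9.65 and 9.29 in the controls. Only mutant replicate 1 reached the range of the controls, and the difference was -0.59 (SE 0.29, limma adjusted p = 0.614), or -0.27 without mutant replicate 2.

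GstD1 had 12.93, 13.40 and 13.25 in the mutants, against 13.10, 13.04 and 13.09 in the controls. The control arrays thus lay within the mutant range, and the difference was 0.12 (SE 0.16), with a 95% interval between -0.26 and 0.50, and 0.01 without mutant replicate 2. GstD2 had 9.16, 7.97 and 9.09 in the mutants, against 8.76, 8.48 and 8.39 in the controls. Mutant replicate 2 was the lowest of the 6 arrays for GstD2, while the other mutants were the highest. In 9 of the 11 GstD genes, mutant replicate 2 was the lowest mutant array, the exceptions being GstD1 and GstD3. Set against the control mean, the class median stood at 0.22, -0.08 and 0.19 for mutant replicates 1, 2 and 3.

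The spread among mutant pools was wider than among control pools for the GstD genes. The median SD was 0.36 among mutant arrays, against 0.10 among control arrays, a ratio of 3.45, against 1.92 over all genes. Over the 69 members the ratio was 1.90, and 54 members (78.3%) had the larger SD in the mutants, against 81.3% of all genes. For the GstE genes the ratio was 3.09 and for the Ugt genes 1.45. A wider mutant spread is thus found over the whole array. The ratio was larger than over all genes for the GstD and GstE genes and smaller for the Ugt genes.

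The GstE genes likewise differed from each other in direction. Epsilon-class enzymes are another arthropod group, and several conjugate products of lipid peroxidation. Of 13 GstE genes 8 had a higher and 5 a lower mean in the mutants, with a median difference of 0.03 and a range between -0.41 for GstE14 and 0.69 for GstE3. Along the cluster on 2R, GstE10, GstE1, GstE2, GstE3 and GstE4 differed by -0.20, 0.40, -0.11, 0.69 and -0.08. The following genes GstE5, GstE6, GstE7 and GstE9 differed by 0.17, 0.65, 0.16 and -0.13. Without mutant replicate 2, GstE10 was at -0.0079, GstE4 at 0.06 and GstE9 at 0.16, so signs along the cluster depend on that array.

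GstE1 had 10.38, 10.16 and 10.39 in the mutants, against 9.93, 9.90 and 9.92 in the controls. The control values were nearly equal, and each mutant array was at least 0.23 above them. The difference was 0.40 (SE 0.13, limma adjusted p = 0.508), or 1.32-fold. GstE3 had 10.78, 11.61 and 11.31 in the mutants, against 10.04, 10.64 and 10.93 in the controls. Mutant replicate 1 lay within the control range, and the difference was 0.69 (SE 0.30, limma adjusted p = 0.587).

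GstE6 had 11.15, 9.62 and 10.94 in the mutants, against 9.94, 9.98 and 9.83 in the controls. Mutant replicates 1 and 3 were above every control array and mutant replicate 2 below them. The difference was 0.65 (SE 0.39, limma adjusted p = 0.647) and was 1.13 (SE 0.14, limma adjusted p = 0.0163) without mutant replicate 2. GstE14, also known as nobo, is needed for ecdysteroid synthesis in the prothoracic gland. It had dim values of 3.91, 4.65 and 4.53 in the mutants, against 4.48, 4.77 and 5.08 in the controls, and a difference of -0.41 (SE 0.25, limma adjusted p = 0.647). GstE12 had 11.53, 11.77 and 11.52 in the mutants, against 11.48, 11.61 and 11.70 in the controls, and a difference of 0.01 (SE 0.14).

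The smaller Gst classes included the single conjugating gene on the X chromosome without overlap. GstT3 had 8.63, 9.26 and 8.86 in the mutants, against 9.27, 9.31 and 9.42 in the controls, so that the nearest values were 0.01 apart. The difference was -0.42 (SE 0.19, limma adjusted p = 0.596). GstT4, the other X-linked member, had 9.20, 10.10 and 9.42 in the mutants, against 9.26, 9.52 and 9.70 in the controls, a difference of 0.08 (SE 0.26), or -0.18 without mutant replicate 2. The median over all 1873 X-linked genes was -0.12, and 30.6% of them had a higher mean in the mutants. The theta-class genes on 2R, GstT1 and GstT2, differed by -0.09 (SE 0.16) and 0.14 (SE 0.14).

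GstT1 had 9.82, 10.32 and 10.13 in the mutants, against 10.15, 10.18 and 10.19 in the controls, which put the controls inside the mutant range. GstS1, the sigma-class enzyme that conjugates the lipid peroxidation product 4-hydroxynonenal, had 10.54, 10.92 and 10.55 in the mutants, against 11.15, 10.91 and 11.10 in the controls. Mutant replicates 1 and 3 were below all controls, and mutant replicate 2 lay just above the lowest one. The difference was -0.38 (SE 0.16, limma adjusted p = 0.586), and the probe set is of a type that can match several transcripts.

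The omega-class genes GstO1, GstO2 and GstO3 lie together on 3L. Omega enzymes reduce as well as conjugate their substrates. GstO3 had 11.54, 12.02 and 11.68 in the mutants, against 11.45, 11.74 and 11.64 in the controls, with overlapping groups and a difference of 0.14 (SE 0.17). GstO1 and GstO2 differed by -0.21 (SE 0.28) and 0.06 (SE 0.16). For GstO2 a dimmer probe set had 9.64, 9.13 and 9.51 in the mutants, against 8.97, 9.04 and 8.91 in the controls. That probe set differed by 0.46 with no overlap, so the probe sets of this gene did not give the same answer. The zeta-class gene GstZ2 had 8.47, 7.47 and 7.99 in the mutants, against 7.97, 7.84 and 7.64 in the controls. Zeta enzymes take part in tyrosine breakdown, and GstZ1 and GstZ2 differed by 0.08 (SE 0.15) and 0.16 (SE 0.26).

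The Ugt genes held the members with the clearest separation. Of 35 Ugt genes 24 had a higher and 11 a lower mean in the mutants, with a median difference of 0.11. There was no overlap in 8 of them, 6 of which were higher and 2 lower, where 6.59% and 7.29% of all genes had no overlap in these directions. Ugt302K1 had the smallest p of all members, with 5.55, 5.74 and 5.57 in the mutants, against 4.72, 4.57 and 5.02 in the controls. The groups were 0.54 apart at their nearest, and the difference was 0.85 (SE 0.16, limma adjusted p = 0.251), or 1.80-fold. Its mean is in the dimmest 25% of genes, which reach up to 5.43, so the size is approximate.

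Ugt37A3 on 3R had 9.01, 9.44 and 8.97 in the mutants, against 7.95, 8.34 and 8.43 in the controls. Here too the groups were far apart, with a gap of 0.55 between the nearest values and a difference of 0.90 (SE 0.20, limma adjusted p = 0.334), or 1.87-fold. Its neighbour Ugt37A2 had 8.66, 7.60 and 8.02 in the mutants, against 7.18, 7.64 and 7.72 in the controls. For Ugt37A2 mutant replicate 2 lay within the control range, and the difference was 0.58 (SE 0.29, limma adjusted p = 0.614). The third gene of this name, Ugt37A1 on 2L, differed by -0.18 (SE 0.23), or 0.07 without mutant replicate 2.

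Within the cluster of 10 Ugt genes on 3R, 6 genes had a higher and 4 a lower mean in the mutants. In chromosomal order Ugt35C1, Ugt302K1, Ugt302E1, Ugt302C1 and Ugt35E1 differed by -0.81, 0.85, -0.11, 0.33 and 1.27. The next genes Ugt35E2, Ugt35B1, Ugt35A1, Ugt304A1 and Ugt303A1 differed by 0.08, -0.70, 0.36, 0.47 and -0.04. The cluster held 4 genes without overlap that were higher and 1 that was lower, read against the same shares of all genes. Ugt302E1 was at 0.31 without mutant replicate 2.

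Ugt35E1 had 6.78, 4.82 and 5.61 in the mutants, against 4.36, 4.38 and 4.67 in the controls. The mutant values were spread widely, with an SD of 0.98 against 0.17 in the controls, and mutant replicate 2 was only 0.15 above the highest control. The difference was 1.27 (SE 0.46, limma adjusted p = 0.554), and as for Ugt302K1 the gene is in the dimmest 25%, so the size is approximate. Ugt35B1 had 6.08, 6.43 and 6.10 in the mutants, against 7.18, 7.04 and 6.49 in the controls. Control replicate 3 was close to mutant replicate 2, and the difference was -0.70 (SE 0.22, limma adjusted p = 0.494).

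Ugt35A1, next to Ugt35B1, had 10.32, 10.42 and 10.10 in the mutants, against 9.67, 10.06 and 10.03 in the controls. Its groups were 0.04 apart, and the difference was 0.36 (SE 0.17, limma adjusted p = 0.606). Ugt304A1 had 6.73, 7.16 and 6.65 in the mutants, against 6.001, 6.48 and 6.64 in the controls, a difference of 0.47 (SE 0.22, limma adjusted p = 0.611). Its lowest mutant and highest control value were nearly equal. Ugt35C1 at the end of the cluster had 8.31, 6.59 and 7.57 in the mutants, against 8.20, 8.53 and 8.18 in the controls. Mutant replicate 1 was in the control range and the other mutants below it, with a difference of -0.81 (SE 0.41, limma adjusted p = 0.614), or -0.36 without mutant replicate 2.

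Elsewhere on 3R, Ugt49B2 had nearly equal values in the mutants. It had 5.19, 5.21 and 5.28 in the mutants, against 6.04, 6.04 and 5.64 in the controls. The SD was 0.05 among mutant and 0.23 among control arrays, and the difference was -0.68 (SE 0.16, limma adjusted p = 0.339), or 0.625-fold. Its relatives Ugt49B1 and Ugt49C1 lie next to each other on 2R. Ugt49B1 had 9.92, 8.21 and 9.37 in the mutants, against 8.51, 8.88 and 8.55 in the controls. Ugt49C1 had 7.30, 6.14 and 7.06 in the mutants, against 6.01, 6.35 and 6.06 in the controls.

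For both Ugt49B1 and Ugt49C1, mutant replicates 1 and 3 were above every control array and mutant replicate 2 was not. Their differences were 0.52 (SE 0.41, limma adjusted p = 0.719) and 0.69 (SE 0.31, limma adjusted p = 0.595). On 2L, Ugt36E1 had 7.24, 7.06 and 6.70 in the mutants, against 6.51, 6.28 and 6.40 in the controls. The groups were 0.19 apart and the difference was 0.60 (SE 0.18, limma adjusted p = 0.468), or 1.52-fold. Its probe set can match several transcripts, and its neighbours Ugt36D1 and Ugt36F1 differed by 0.27 (SE 0.41) and 0.00 (SE 0.18), or -0.21 and -0.05 without mutant replicate 2.

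Ugt303B1 on 3R had 7.27, 6.83 and 6.75 in the mutants, against 5.90, 6.58 and 6.75 in the controls. Control replicate 1 stood below the other arrays, and the difference was 0.54 (SE 0.26, limma adjusted p = 0.614). Its neighbours Ugt303B3 and Ugt303B2 differed by 0.09 (SE 0.25) and -0.04 (SE 0.13). By arm, 10 of 11 members on 2L had a higher mean in the mutants, against 51.3% of all 2L genes, as had 12 of 21 on 2R (57.1%, against 54.5%), 3 of 5 on 3L and 20 of 30 on 3R (66.7%, against 56.0%). Without mutant replicate 2 these counts were 8 on 2L, 13 on 2R, 1 on 3L and 24 on 3R.

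Mutant replicate 2 stood apart from the other mutant pools in many of these genes. It was the lowest mutant array in 38 members (55.1%, against 36.4% of all genes) and the highest in 22 (31.9%, against 44.7%). It lay at least 1 below the mean of mutant replicates 1 and 3 in 10 members (14.5%, against 4.26% of all genes) and at least 1 above it in 2 (2.90%, against 9.29%). The 10 are GstD2, GstE6, Ugt37C1, Ugt37C2, Ugt37D1, Ugt49B1, Ugt49C1, Ugt35C1, Ugt302E1 and Ugt35E1. The 2 are Ugt301D1 and Ugt36D1.

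**Figure D3:**
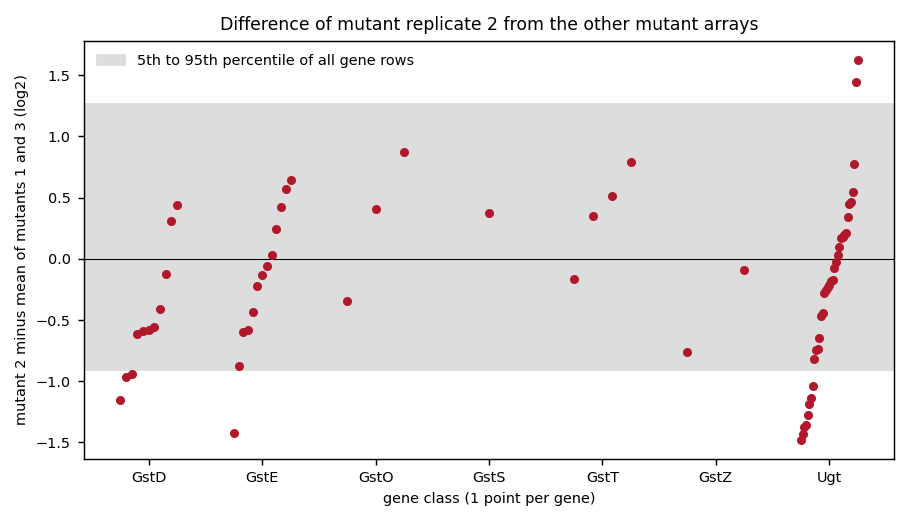
Log2 value in mutant replicate 2 minus the mean of mutant replicates 1 and 3, by gene class, with 1 point per gene. The grey band holds the 5th to the 95th percentile of all genes, between -0.91 and 1.27. Of the Ugt genes 8 lie at or below -1, and 9 of the 11 GstD genes lie below 0.

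Ugt37C1 had 8.96, 7.31 and 8.61 in the mutants, against 9.29, 8.80 and 8.62 in the controls. Mutant replicate 2 was below every control array, and the difference of the groups was -0.61 (SE 0.43, limma adjusted p = 0.681), or -0.12 without that array. The neighbours Ugt37C2, Ugt37E1 and Ugt37D1 on 2L all had their lowest mutant value in mutant replicate 2, with cluster medians of 0.76, -0.55 and 0.38 in mutant replicates 1, 2 and 3. Ugt301D1 ran the other way, with 8.03, 10.01 and 8.73 in the mutants, against 8.77, 8.72 and 8.42 in the controls. Ugt36D1 had 8.28, 9.92 and 8.67 in the mutants, against 8.81, 8.48 and 8.77 in the controls. In both, mutant replicate 2 was the highest array and mutant replicate 1 the lowest.

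**Figure D4:**
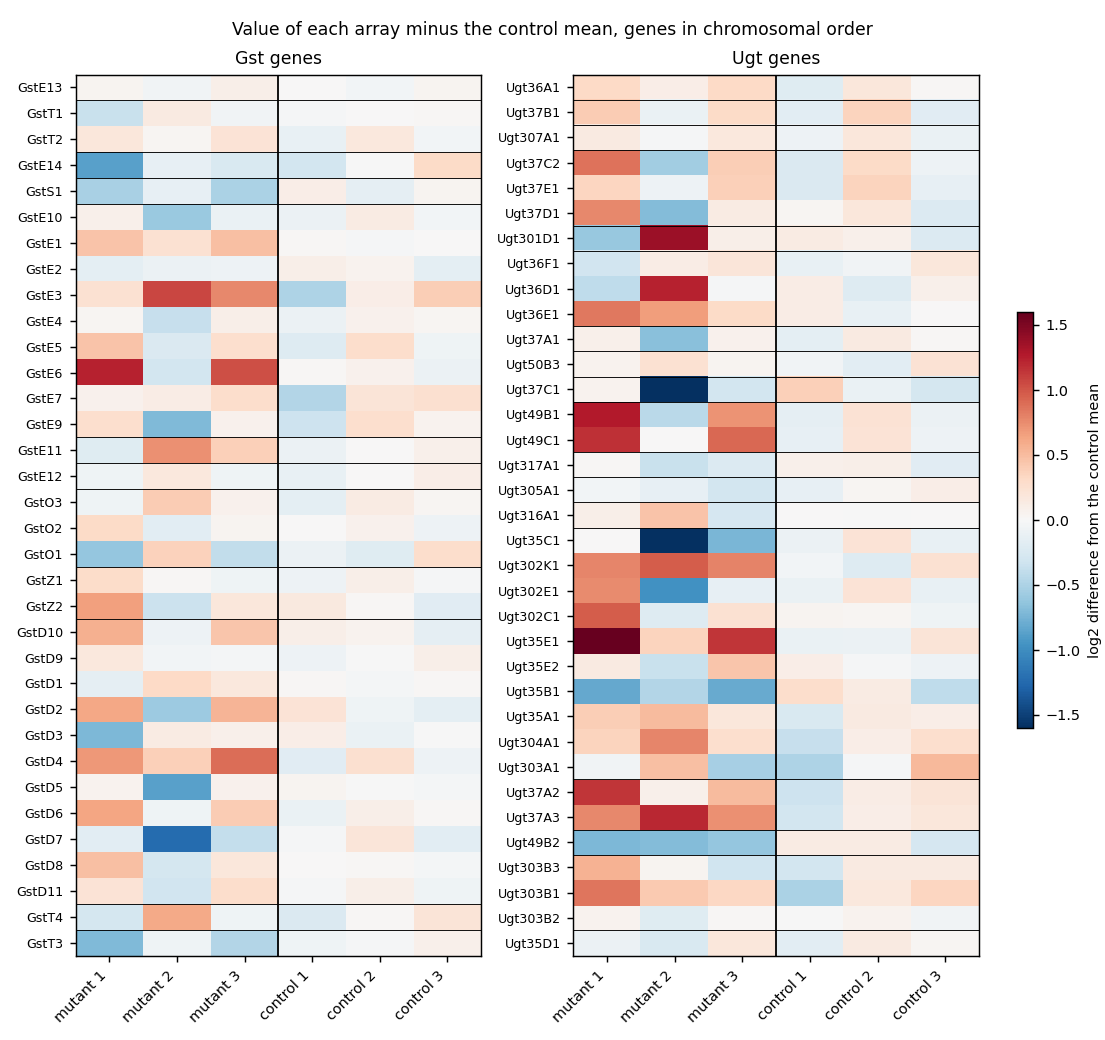
Value of each array minus the control mean (log2, colour) for the Gst genes (left) and the Ugt genes (right), with mutant arrays left of the black line and control arrays right of it. Genes are in chromosomal order, thin lines separate clusters, and colours saturate at the ends of the scale. Ugt302K1, Ugt37A3 and Ugt49B2 have 1 colour in all mutant arrays, while GstE6, Ugt49B1 and Ugt37D1 change colour in mutant replicate 2.

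Markers of organs that express these families also differed between the mutant pools, and the midgut medians differed between the groups. The median of 8 measured Malpighian tubule markers stood at 0.31, -0.27 and -0.01 for mutant replicates 1, 2 and 3, against 0.22, 0.00 and -0.19 for control replicates 1, 2 and 3. Their summed level was between 11.08 and 11.93 (log2) in the mutants, against 11.26 to 11.71 in the controls. The median of 7 midgut markers stood at 0.45, 0.29 and 0.31 in the mutants, against -0.24, 0.13 and 0.06 in the controls. Every mutant median was thus above every control median, and 6 of the 7 markers had a higher mean in the mutants. Their summed level was between 15.49 and 15.83 in the mutants, against 15.25 to 15.56 in the controls.

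The 4 measured fat body markers had medians of -1.89, 0.88 and 0.28 in the mutants, against -0.22, -0.10 and 0.32 in the controls. The median follows Lsp2, Fbp1 and Fbp2, while apolpp had 12.97, 13.09 and 13.09 in the mutants, against 13.15, 13.09 and 13.09 in the controls. The summed level of these 4 markers was between 13.60 and 15.58 in the mutants, against 14.69 to 15.18 in the controls. The summed level of the glue genes was between 13.80 and 16.42 in the mutants, against 15.78 to 16.16 in the controls. The glue list was not uniform, since ng1 and ng2 had their lowest value of the 6 arrays in mutant replicate 2, at 10.79 and 10.50. In mutant replicate 1, ng1, ng2 and ng3 were at 11.59, 11.87 and 12.18, against control means of 11.81, 11.70 and 12.51. Of 6 testis markers 5 were below 0, with medians of -0.67, -0.04 and -0.77 in mutant replicates 1, 2 and 3, and a summed level between 8.27 and 9.07, against 9.00 to 9.14 in the controls. Mutant replicate 2 thus had the lowest tubule level, the highest summed glue level and the smallest 3' minus 5' difference. Mutant replicate 1 had the lowest summed fat body and glue levels and the largest 3' minus 5' difference. The part of these marker levels in the differences of the conjugating genes was not tested.

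**Figure D5:**
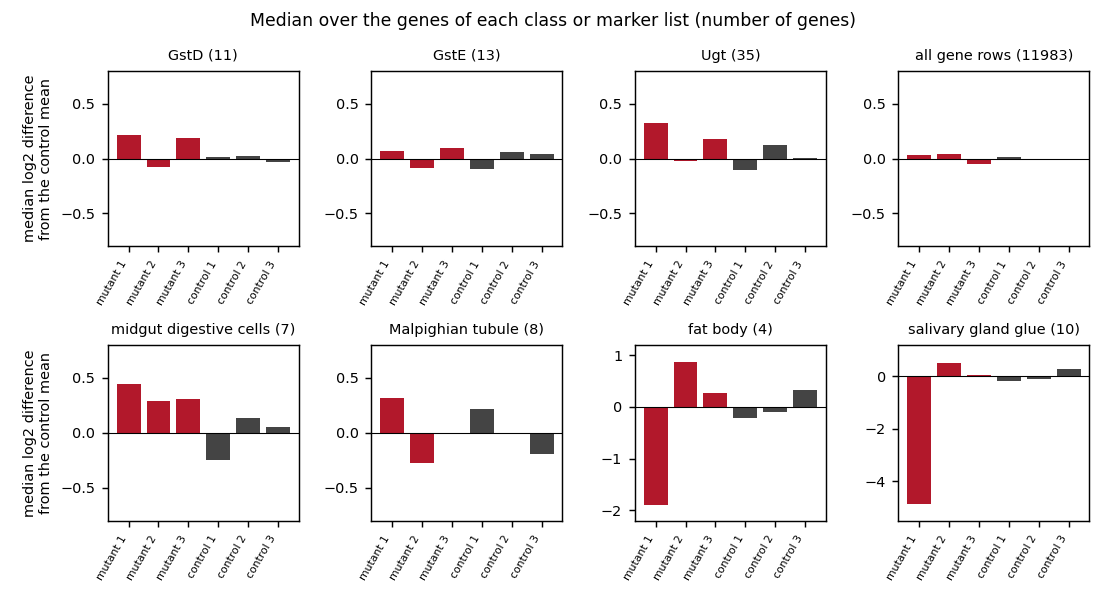
Median difference from the control mean (log2) in each array, over the genes of 3 conjugating classes, over all gene rows and over 4 marker lists, with the number of genes in the panel title. Mutant bars are red and control bars grey, and the fat body and glue panels have wider axes. The Ugt bars of mutant replicates 1, 2 and 3 are 0.32, -0.02 and 0.18, and the Malpighian tubule bars are 0.31, -0.27 and -0.01.

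Without mutant replicate 2, 8 conjugating genes passed the threshold. Higher were 7 members (10.1%), against 335 of all genes (2.80%), and lower was 1 (1.45%), against 948 (7.91%). On the 4 large autosomal arms 10.4% of members were higher, against 2.92% of genes, and 0 members were lower, against 6.98%. The 7 were GstE6, GstD4, Ugt49B1, Ugt49C1, Ugt302K1, Ugt35E1 and Ugt37A3, and the lower one was the X-linked GstT3. Of these, GstE6, Ugt49B1, Ugt49C1 and Ugt35E1 are among the 10 members with mutant replicate 2 at least 1 below the other mutants. The left-out array was thus already low in those genes, and the larger share of higher members is in part not a separate result. Mutant replicate 2 was also below the mean of the other mutants for GstD4, by 0.41. For Ugt302K1 and Ugt37A3 it was the highest mutant array, at 0.18 and 0.45 above that mean. The difference of Ugt35E1 was 1.73 (SE 0.33, limma adjusted p = 0.0296) and that of Ugt49C1 1.04 (SE 0.16, limma adjusted p = 0.0254). For Ugt49B1 the difference was 0.998 (SE 0.21) and for Ugt302K1 0.79 (SE 0.17), both with a limma adjusted p of 0.035. For GstD4 the value was 0.79 (SE 0.17, limma adjusted p = 0.0381), for Ugt37A3 0.75 (SE 0.18, limma adjusted p = 0.0453) and for GstT3 -0.59 (SE 0.14, limma adjusted p = 0.0459). This fit has 2 mutant and 3 control arrays, and without any other single array 0 members passed.

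Fits that keep all arrays but treat them unequally gave overlapping lists, which is no separate evidence, since these fits also depend on mutant replicate 2. Limma's array weights came to 0.415, 0.175 and 3.15 for mutant replicates 1, 2 and 3. With them 7 of 69 members were higher, against 3.68% of all genes, and 4 were lower, against 8.45%. GstD4, GstE6, Ugt302K1, Ugt35E1, Ugt37A3, Ugt49C1 and GstT3 passed in this fit as well as without mutant replicate 2. GstE1 was higher, and GstS1, Ugt35B1 and Ugt49B2 were lower, with the weights alone. With the RNA integrity measure entered as a covariate, an alternative chosen after seeing the data, Ugt302K1, Ugt35E1 and Ugt37A3 were higher. Their limma adjusted p values were 0.0483, 0.028 and 0.0482. These are 3 of 69 members, against 1.09% of all genes, and 0 members were lower, against 1.16%. The covariate has its lowest value in mutant replicate 2 and its highest in mutant replicate 1, so this fit adjusts those arrays most.

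The genes that supply and clear these reactions showed no call in the fit of the 6 arrays. That fit called 0% of all genes higher and 0.0167% lower, so few calls are possible in any list. Of 15 measured genes of glutathione supply and redox defence 0 were higher and 0 lower. Cth, which makes cysteine for glutathione, differed by 0.31 (SE 0.12, limma adjusted p = 0.57), with 10.13, 10.04 and 10.02 in the mutants, against 9.72, 9.78 and 9.76 in the controls. Catalase (Cat) had a difference of 0.52 (SE 0.25) and Prx6c, a peroxiredoxin, of 0.48. Without mutant replicate 2 Prx6c was higher by 0.71 (limma adjusted p = 0.0424), in a fit that called 2.80% of all genes higher.

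The 6 measured genes listed as other glutathione transferases or their relatives included eEF1gamma, a translation elongation factor subunit, at 0.37 (SE 0.14, limma adjusted p = 0.557), and the X-linked Clic, an ion channel protein, at -0.26. The X-linked microsomal transferase gene Mgstl was at -0.32 (SE 0.15). None of the 5 genes of sugar donor supply passed, and sgl, the UDP-glucose dehydrogenase, was at 0.20 (SE 0.20). Among 11 transporters of conjugates and drugs, Mdr49, an ATP-driven efflux pump, had 8.94, 8.41 and 8.64 in the mutants, against 8.05, 7.71 and 7.50 in the controls. It differed by 0.91 (SE 0.21, limma adjusted p = 0.334) and passed without mutant replicate 2 (1.04, limma adjusted p = 0.0298), as did 2.80% of all genes in this direction.

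No regulator of the detoxification response passed the test. The gene of the stress factor CncC, cnc, had 10.33, 10.19 and 9.86 in the mutants, against 10.13, 9.91 and 9.95 in the controls. Its inhibitor Keap1 differed by 0.11 (SE 0.23) and its partner maf-S by -0.13 (SE 0.14). Of 12 regulators 0 were called higher or lower. The nuclear receptor gene ftz-f1, which acts after the ecdysone pulses, had 5.38, 4.27 and 5.12 in the mutants, against 4.21, 3.83 and 4.02 in the controls. It differed by 0.90 (SE 0.30, limma adjusted p = 0.508), and it is in the dimmest 25% of genes. Without mutant replicate 2 it differed by 1.23 (limma adjusted p = 0.0212), in a fit that called 2.80% of all genes higher.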

How the data were processed

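RNA of 6 pools of male larvae was measured on 1-colour Affymetrix Drosophila arrays. The authors deposited RMA values on a log2 scale, with background correction, normalization and summarization to probe sets, per the labels. GCOS 1.4 is named in the submitters' processing notes, and the version of RMA is not given in the sources used here. RMA aligns the distributions of the arrays, which hides a shift shared by most genes, and it compresses differences at dim probe sets. The number of arrays limits the precision, and p-values set the difference of the groups against the spread between pools. Values of different probe sets are not compared with each other.

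Of 18952 probe sets, 13647 have 1 gene symbol in the platform annotation, 402 have several and were left out, and 4720 are unnamed here, beside 183 controls. Per gene the brightest probe set was kept (11983 genes, 11894 of them found in the RefSeq table of the assembly Release 6 plus ISO1 MT, which gave chromosome arms and gene order). No coordinates are given. Of the members, 4 have probe sets that can match several transcripts, 2 have a further probe set and 16 are in the dimmest 25% of genes.

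Differences (mutant minus control) were tested across all genes with limma 3.58.1 in R 4.3.3 (a two-sided moderated test). The Benjamini-Hochberg adjustment covered 11983 genes, with a threshold of 0.05. Python 3.11.15 with matplotlib 3.10.9 made the figures. The fit was tested on simulated data with independent noise of equal SD in both groups. The mutant spread is wider in these arrays, so the simulation does not bear on the influence of mutant replicate 2. The members and lists were chosen with earlier results of these data known, so no p is given for a list, and the spacing that defines a cluster was set after the gene table was seen. Values of every array are given for members without overlap, the brightest of each class, the 4 with the largest mutant SD and 8 further members with the largest differences, and a few others were named after their values were seen. In the other lists up to 3 genes with the smallest p were named, and cnc, Keap1 and maf-S for their roles. Alternatives were each array left out, a replicate block, array weights, the brighter 50% of genes, averaged probe sets, another variance prior, autosomal centring and members by RefSeq symbol. The replicate numbers were not treated as pairs: deviations of same-numbered arrays correlated at 0.19, -0.27 and 0.11.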

Additional observations from a re-analysis of the deposited data

How the results depend on the processing

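With single arrays left out, the count of all genes called lower was between 0 and 948 and of genes called higher between 0 and 335, against 2 and 0 in the fit of the 6 arrays, and the members called were between 0 and 7 higher and between 0 and 1 lower. The largest counts are all without mutant replicate 2. The median difference of the members stayed between 0.05 and 0.13. With array weights 441 genes were higher and 1012 lower, of them 7 and 4 members. With the RNA integrity covariate 131 were higher and 139 lower, of them 3 and 0 members. The replicate block gave 0 lower genes and 0 members in either direction, the brighter 50% of genes gave 0 and the other variance prior 1 lower. Averaged probe sets and autosomal centring left the counts of members at 0, and RefSeq symbols gave the identical members. Of the 28 members recomputed under the alternatives, 5 turned sign, and of all 69 members 14 did so without mutant replicate 2. Recomputed members outside the brighter 50% of genes have no value in that fit. GstE12 was between -0.071 and 0.064 with single arrays left out, -0.068 with array weights and -0.011 with the covariate. GstO3 was between -0.00041 and 0.24, GstT1 between -0.20 and 0.048, GstZ2 between -0.084 and 0.42 and Ugt301D1 between -0.26 and 0.73 with single arrays left out. The causes were not tested. The class medians of GstD, GstT and Ugt were 0.25, -0.19 and 0.29 without mutant replicate 2, that of GstD was -0.02 without mutant replicate 1, and that of GstE was 0.16 in the brighter 50% of genes. Differences of dim members are approximate.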
